A study of Drosophila melanogaster with 3 samples.

Results

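The genes described here are the nuclear transfer RNA (tRNA) genes of Drosophila melanogaster that read their codons with a guanosine at the wobble position and do not accept queuosine. They were chosen by symbol as the nuclear genes whose name starts with tRNA:Gly-GCC, tRNA:Cys-GCA, tRNA:Phe-GAA or tRNA:Ser-GCT. The rule found 35 genes among the 3546 noncoding genes of the authors' deposited table, of which 14 are Gly-GCC, 7 Cys-GCA, 8 Phe-GAA and 6 Ser-GCT. The material was small RNA from whole heads of adult males by the sample titles and labels, although the molecule is labelled as polyA RNA. In the Sxl-RAC group, tub-GAL80ts and the pan-neuronal driver nSyb-GAL4 were crossed to UAS-SxlRAC, so that neurons made a version of Sex-lethal (Sxl), the RNA-binding protein that switches fly sex determination. The control group carried nSyb-GAL4 and UAS-mCherry at the attP2 landing site, and the labels do not repeat tub-GAL80ts for it. By the labels of the Sxl-RAC samples, flies grew at 18 °C and spent 4 days at 29 °C after eclosion. At 29 °C the repressor GAL80ts stops acting. The labels list 3 Sxl-RAC samples and no control sample, so the handling of the control flies is not listed separately. Whether the samples came from separate cultures is not said, so the spread between libraries may be technical. The UAS transgenes are driven in neurons only, whereas the RNA came from all cells of the head.

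The base at the start of the anticodon, position 34 of a tRNA, pairs with the last base of the codon. A guanosine there reads codons ending in C or U, so these 4 tRNAs serve GGC and GGU for glycine, the codons of cysteine and phenylalanine, and AGC and AGU for serine. In the tRNAs of tyrosine, histidine, asparagine and aspartate the same guanosine is exchanged for queuosine, whose base flies take up from food and microbes. The 4 tRNAs here lack the anticodon middle uridine that the exchanging enzyme recognises. Unmodified means only that queuosine is absent, since in yeast and flies the wobble guanosine of tRNA-Phe is methylated on its ribose. Genes of tRNA are transcribed by RNA polymerase III, and the series asks whether Sex-lethal promotes that synthesis in male neurons. In a small RNA library, tRNA genes collect reads from tRNA fragments and from those full-length tRNAs that could be copied and cloned. Fewer cells of a type and less RNA per cell cannot be told apart in such bulk samples.

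Values of tRNA genes below are on the scale on which the authors placed those genes, unless the microRNA scale is named. Other genes of the table need not share that scale. The mean normalised count is a read count divided by the size factor of its library and averaged over the libraries compared. The effect is the log2 fold change of Sxl-RAC over control with its standard error (SE), and called genes are those with a DESeq2 Wald adjusted p, as deposited, under 0.05. Recomputing the Benjamini-Hochberg adjustment over tRNA genes alone matched the deposited adjusted p within 1% for 149 of 149 tRNA genes, against 1 of 149 when all genes were adjusted at once. The tRNA genes thus had an adjustment of their own. Their size factors, recovered from the smallest mean counts, differed from those of the microRNAs: moving a tRNA gene to the microRNA scale adds -0.43 to its log2 fold change. The recovered libraries number 6, with 3 in each arm, and the arms were read from the authors' fold changes of other genes. Their tRNA size factors were 2.19, 1.16 and 0.819 for the control and 0.956, 0.817 and 0.625 for Sxl-RAC, a 3.51-fold range in depth, so that 63.5% of the summed depth lay in the control libraries. Control library 1 and Sxl-RAC library 1 denote the deepest of each arm below, and these numbers are not those of the listed samples. The tissue could be checked only by noncoding genes. The neuronal mir-124 had a mean normalised count of 12.9, and the male X chromosome RNAs lncRNA:roX1 and lncRNA:roX2 had 26.1 and 2.61, with roX1 at a log2 fold change of -1.38 (SE 0.49, DESeq2 adjusted p 0.298).

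The 4 families differed far more from each other in level than any of them differed between Sxl-RAC and control. Summed over its genes, Gly-GCC reached a mean normalised count of 21988 and Cys-GCA 2124, while Ser-GCT had 12 and Phe-GAA 4.02. Together the 35 genes held 4.2% of the mean counts of the 290 nuclear tRNA genes, of which Gly-GCC alone held 3.83%. Expressed per 100 bases of gene, a Gly-GCC gene averaged 2212, a Cys-GCA gene 421.5, a Ser-GCT gene 2.44 and a Phe-GAA gene 0.689. The length used was the annotated span, which includes any intron. Among 45 nuclear anticodon families ordered by their summed level per 100 bases, Gly-GCC stood in place 4, Cys-GCA in place 8, Ser-GCT in place 34 and Phe-GAA in place 41. Places depend on that length: Tyr-GTA, with a summed mean count of 2299, above that of Cys-GCA, stood in place 14. The order did not follow gene number, since Phe-GAA has 8 genes and Cys-GCA 7. The other serine families were low as well, at 9.36 per 100 bases of gene for Ser-TGA, 3.09 for Ser-AGA and 2.95 for Ser-CGA. The queuosine acceptor Asn-GTT stood at 2.97.

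**Figure D1:**
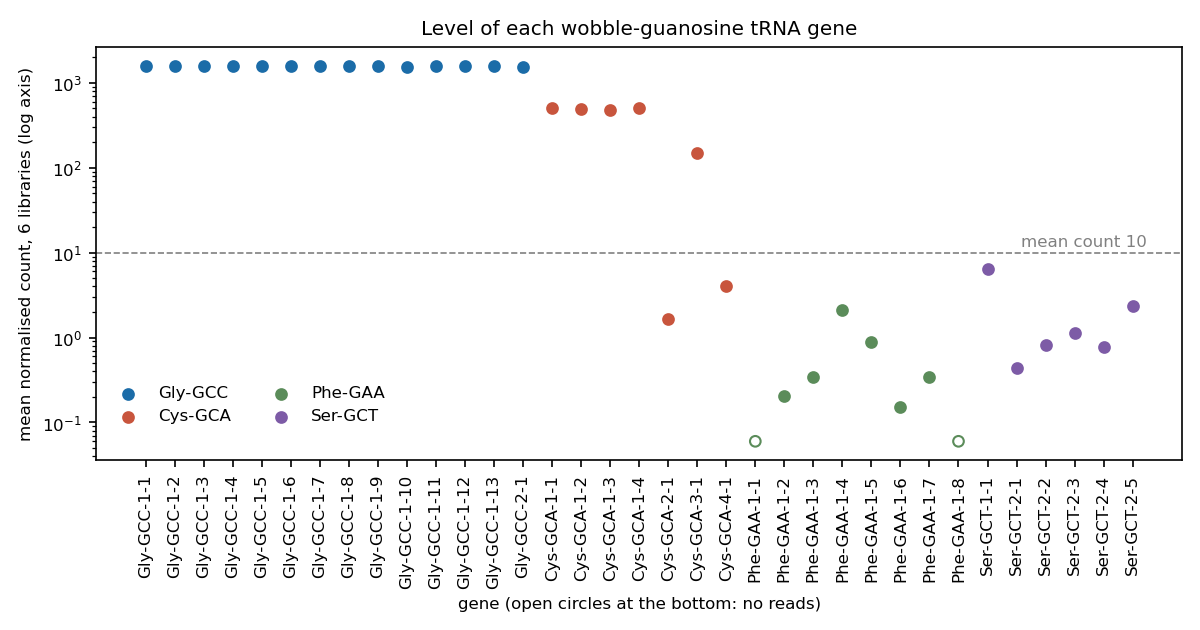
Mean normalised count over 6 libraries (log axis) of each of the 35 genes, coloured by anticodon family; open circles are the 2 genes without reads. All 14 Gly-GCC genes lie between 1548 and 1586, whereas no Phe-GAA or Ser-GCT gene reaches the line at a mean count of 10.

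Of the 35 genes, 33 had reads, and 19 had a mean normalised count of at least 10. The same 19 genes, 14 Gly-GCC and 5 Cys-GCA, were given an adjusted p by the authors. Of these, 1 was called, tRNA:Cys-GCA-3-1, which was higher in Sxl-RAC heads, and 0 were lower. The share called was 5.14% over all 1128 tested genes of the table (3.37% higher, 1.77% lower) and 21.2% over the 137 tested nuclear tRNA genes (14.6% higher, 6.57% lower). No other of the 35 genes had an unadjusted p under 0.05. For the 19 genes the log2 fold changes had a median of -0.01, beside -0.01 over the 529 genes of the whole table and -0.04 over the 141 nuclear tRNA genes that reach this level. The whole table mixes genes with different size factors and separate adjustments, so its median and share called are not on the tRNA scale alone. On the microRNA scale the median of the 19 genes became -0.44. There 18 of the 19 genes had a recomputed adjusted p under 0.05 (Wald test, Benjamini-Hochberg over tRNA genes), all lower. There the share called was 65% over tested nuclear tRNA genes, all lower as well, and the uncertainty of the shift is not part of that test.

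The glycine genes showed little difference between the arms and between copies. In the names of fly tRNA genes the number after the anticodon marks a mature sequence and the last number a copy of it, so Gly-GCC-1 has 13 copies and Gly-GCC-2 has 1. Gly-GCC tRNA is known in many animals as a rich source of fragments from its 5′ part. Of these genes, 8 lie on chromosome 2L and 6 on 2R, and the largest group, with 5 genes, spans 12834 bases of 2L (14518091 to 14530924, build BDGP6.54).

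Log2 fold changes of the 14 genes in the authors' deposited table ran from -0.09 for tRNA:Gly-GCC-1-8 to 0.05 for tRNA:Gly-GCC-1-6, with a median of -0.03, and 3 of the 14 were above 0. The SE of a single gene was 0.08 to 0.09, and the adjusted p values by DESeq2 were 0.562 to 0.931. The 95% intervals of the 14 genes, from their SE, together covered -0.25 to 0.21. With arms of equal size, the deposited means and fold changes correspond to 22184 normalised counts for the summed family in control heads and 21793 in Sxl-RAC heads. The 95% interval of each of the 14 genes included 0 on the tRNA scale, and no error is at hand for the summed family. Its median on the microRNA scale was -0.46, and tRNA:Gly-GCC-1-6 turned from 0.05 to -0.38.

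Copies of Gly-GCC could not be told apart in level. The gene with the most reads, tRNA:Gly-GCC-1-5, had a mean normalised count of 1586, and the gene with the fewest, tRNA:Gly-GCC-1-10, had 1548. Across the 14 genes the standard deviation of the mean counts was 12.4, while counting error alone, computed from the recovered depths, gives 16.7. The copy with its own mature sequence, tRNA:Gly-GCC-2-1, lay inside this range with a mean count of 1551 and a log2 fold change of -0.06 (SE 0.08). The standard deviation of the log2 fold changes across the 14 genes was 0.04, beside a counting error of 0.03 and a median SE of 0.08. How reads that match several copies were counted is not given in the sources used here, so the 14 genes may not be separate measurements.

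The cysteine genes held the single call. All 7 lie on chromosome 3L and carry 4 different mature sequences by their names. The copies Cys-GCA-1-1 to Cys-GCA-1-4 sit within 1854 bases (3095737 to 3097590, build BDGP6.54) in an intron of Cht7, a chitinase gene, on the strand opposite to it. Their mean normalised counts were 502.2, 485.0, 477.1 and 504.8, with a standard deviation of 13.4 against a counting error of 9.36. Their log2 fold changes in the authors' deposited table were 0.06, 0.02, 0.04 and -0.04 with SE of 0.11 to 0.12, and none was called. The 95% intervals of these 4 genes together covered -0.26 to 0.29.

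The gene tRNA:Cys-GCA-3-1 (chromosome 3L, 2273744 to 2273815, plus strand) overlaps no other annotated gene and is the only copy of its sequence. Its mean normalised count was 149.7, which is 0.304 times that of a Cys-GCA-1 gene. The deposited values correspond to about 119.7 normalised counts in control heads and 179.7 in Sxl-RAC heads. Its log2 fold change was 0.59 with an SE of 0.16 (DESeq2 adjusted p 0.00696, both from the authors' deposited table), a 1.5-fold increase with a 95% interval from 1.20 to 1.87. Among the 137 tested nuclear tRNA genes it had the second-highest log2 fold change, after tRNA:Arg-CCT-1-2 at 0.71. By Wald statistic it stood in place 3, after tRNA:Lys-TTT-1-1 (0.50, DESeq2 adjusted p 0.00482) and tRNA:Lys-TTT-2-2 (0.49, DESeq2 adjusted p 0.00494). The log2 fold change of tRNA:Cys-GCA-3-1 exceeded the median of the 4 Cys-GCA-1 genes by 0.55. This difference within the same libraries is the same on either scale and was not tested. On the microRNA scale it stood at 0.16 and no longer passed (recomputed Wald adjusted p 0.385). The values of single libraries were not analysed here for genes at this level.

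**Figure D2:**
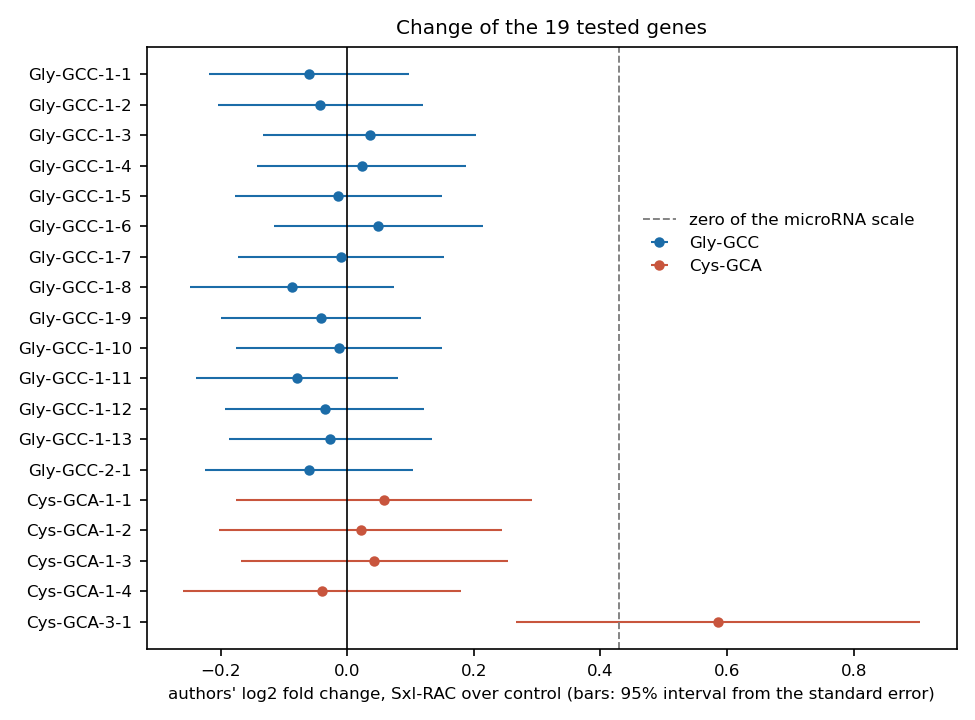
Authors' log2 fold change of Sxl-RAC over control for the 19 tested genes; points are the deposited values, bars their 95% intervals from the SE, and the dashed line, at 0.43, is where 0 lies on the microRNA scale. The 18 uncalled genes lie between -0.09 and 0.06, and tRNA:Cys-GCA-3-1 lies apart at 0.59 with an interval that spans the dashed line.

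For the 16 genes with a mean count under 10, the reads in each library could be recovered, because a small mean count can be written in a single way as a sum of whole reads with the weights of the 6 libraries. These reads carry counting error only as far as they are independent molecules. The remaining cysteine genes were among them. The gene tRNA:Cys-GCA-2-1, in an intron of the homeobox gene Dbx on the same strand, had 5, 1 and 2 reads in control libraries 1 to 3 and 1, 0 and 2 in Sxl-RAC libraries 1 to 3. The gene tRNA:Cys-GCA-4-1, in an intron of mub on the opposite strand, had 9, 2 and 1 reads in control libraries and 2, 3 and 7 in those of Sxl-RAC. Divided by size factors, the latter gave 4.10, 1.72 and 1.22 in the control and 2.09, 3.67 and 11.2 in Sxl-RAC. The arms overlapped for both genes, and the high value of Cys-GCA-4-1 rested on the shallowest Sxl-RAC library.

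The phenylalanine genes carried 25 reads in all. Their 8 genes share 1 mature sequence by name and are spread over chromosomes X, 2L, 2R and 3R. No read was found for tRNA:Phe-GAA-1-1 or tRNA:Phe-GAA-1-8, where a count of 0 still allows up to 3 reads. Of the 25 reads, 13 fell on tRNA:Phe-GAA-1-4 and 5 on its neighbour tRNA:Phe-GAA-1-5, and the other genes had 1 or 2 each. Summed over the family, the normalised reads were 3.65, 3.45 and 3.66 in control libraries 1 to 3 and 2.09, 4.89 and 6.40 in Sxl-RAC libraries 1 to 3. The control values lay close together and the Sxl-RAC values on both sides of them. They came from 8, 4 and 3 reads in the control and 2, 4 and 4 in Sxl-RAC. At such counts close values do not show that an arm was measured precisely. The means were 3.59 ± 0.12 (SD, n = 3) and 4.46 ± 2.19 (SD, n = 3), a difference within the spread of the libraries (exact two-sided permutation test, p = 0.7, where 3 against 3 libraries cannot go below 0.1). Of the reads, 60% were in control libraries, with an exact Clopper-Pearson 95% interval from 38.7% to 78.9%, beside their 63.5% of the depth.

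The serine genes carried 77 reads. All 6 lie on chromosome 3R, and 4 of them within 1126 bases (22396528 to 22397653, build BDGP6.54). The family had 23, 14 and 10 reads in control libraries 1 to 3 and 14, 8 and 8 in Sxl-RAC libraries 1 to 3. Normalised, these gave 10.5, 12.1 and 12.2 in the control and 14.6, 9.79 and 12.8 in Sxl-RAC. The arms overlapped, with means of 11.6 ± 0.95 (SD, n = 3) and 12.4 ± 2.45 (SD, n = 3) and an exact two-sided permutation p of 0.6. The control libraries held 61.0% of the reads, with an exact Clopper-Pearson 95% interval from 49.2% to 72.0%.

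Within the serine family, tRNA:Ser-GCT-1-1, the only copy of its sequence, held 40 of the 77 reads. Its normalised reads were 4.56, 5.17 and 6.10 in control and 9.42, 8.56 and 4.8 with Sxl-RAC (exact permutation p = 0.3), so the highest values were Sxl-RAC but the arms overlapped. The 5 Ser-GCT-2 genes together had 5.93, 6.90 and 6.10 in the control and 5.23, 1.22 and 8.0 in Sxl-RAC (exact permutation p = 0.7). Among them tRNA:Ser-GCT-2-3 had 4, 3 and 2 reads in the control libraries and 0 in every Sxl-RAC library. A floor of 3 reads over the Sxl-RAC arm corresponds to 1.25 normalised reads, and the control mean of 2.28 was 1.83-fold that value. This ratio leaves out the error of the control mean, so it is not a lower bound. The interval from the authors' SE for the log2 fold change of tRNA:Ser-GCT-2-3 ran from -6.90 to 0.35 and included 0. The arms did not overlap (exact permutation p = 0.1, the smallest that 20 divisions allow). Benjamini-Hochberg adjustment over the 8 genes and sums compared this way gave an adjusted p of 0.8, and the authors' unadjusted Wald p was 0.0769. The gene was singled out from the 16 low genes after its values were seen, and the 8 genes and sums overlap one another. Neither permutation value therefore measures how unusual it is. The share of other low tRNA genes with separate arms was not analysed here. The other 4 copies of the same sequence had normalised reads of 4.10, 4.31 and 3.66 in the control and 5.23, 1.22 and 8.0 in Sxl-RAC.

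**Figure D3:**
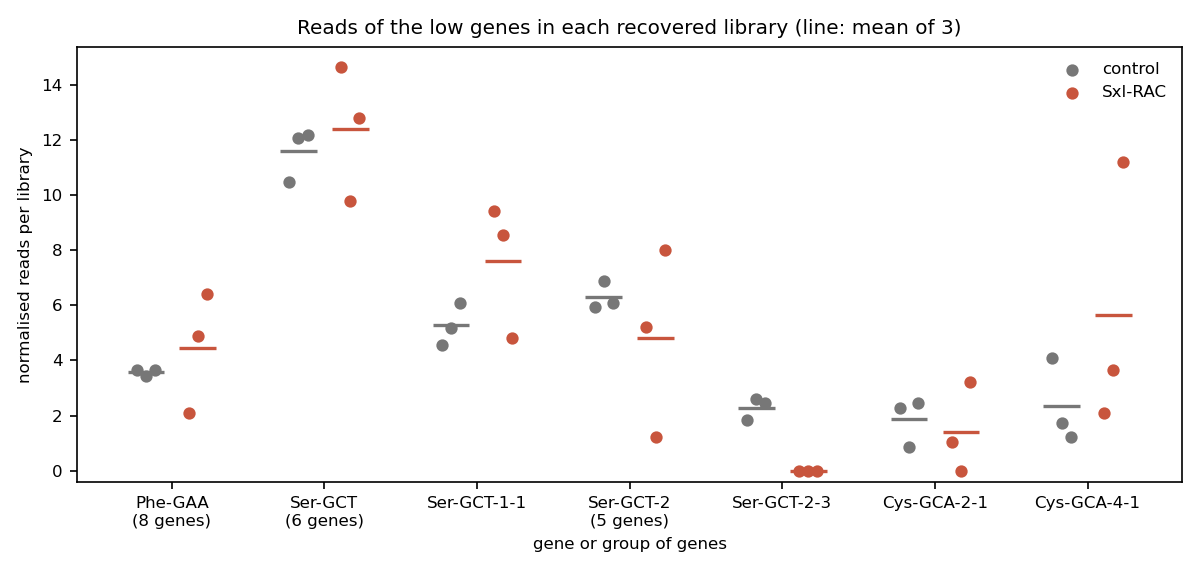
Normalised reads in each recovered library for the families and single genes with a mean count under 10; points are libraries, grey for control and red for Sxl-RAC, and lines are means of 3. The arms overlap in all groups shown except tRNA:Ser-GCT-2-3, which has 0 in the 3 Sxl-RAC libraries and lies within the sum of the 5 Ser-GCT-2 genes. That gene has 9 reads in all and was singled out after its values were seen. The share of other low tRNA genes with separate arms was not analysed here.

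The families most alike are the 4 queuosine acceptors Tyr-GTA, His-GTG, Asp-GTC and Asn-GTT, which share the wobble guanosine before its exchange. The authors gave 20 of their 39 genes an adjusted p, and 3 of these were called, all lower, against 1 of 19, higher, in the families without queuosine. The 3 calls were 1 Tyr-GTA gene and 2 Asp-GTC genes. Over the 137 tested nuclear tRNA genes the share called was 21.2% (14.6% higher, 6.57% lower). The median log2 fold change of the acceptors was -0.15 at a mean count of at least 10, beside -0.01. Both sets were measured in the same libraries, copies may share reads, and the difference between the sets was not tested. Asp-GTC made up 14 of the 20 tested acceptors. It has 14 genes like Gly-GCC and averaged 2878 per 100 bases of gene against 2212. Its log2 fold changes had a standard deviation of 0.16 across genes, against 0.04 in Gly-GCC at median SE of 0.09 and 0.08. A narrow range among copies was not particular to Gly-GCC. The 13 Lys-CTT genes ran from 0.23 to 0.28 and the 6 Glu-TTC genes from -0.32 to -0.26. The Asp-GTC genes stood at 2 levels. The 4 genes above 0 had mean counts of 3980 to 4015, and the 10 below 0 had 1052 to 1352. Among these 10 the log2 fold changes still ran from -0.31 to -0.13, with the called tRNA:Asp-GTC-2-1 and tRNA:Asp-GTC-3-1 lowest. Copies of Asp-GTC-1 stood at both levels. The 6 genes of the other nuclear glycine family, Gly-TCC, had mean counts of 11.1 to 42.3, log2 fold changes from -0.39 to 0.51 and 0 calls by DESeq2 among the 5 tested, with 0 unadjusted p under 0.05.

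**Figure D4:**
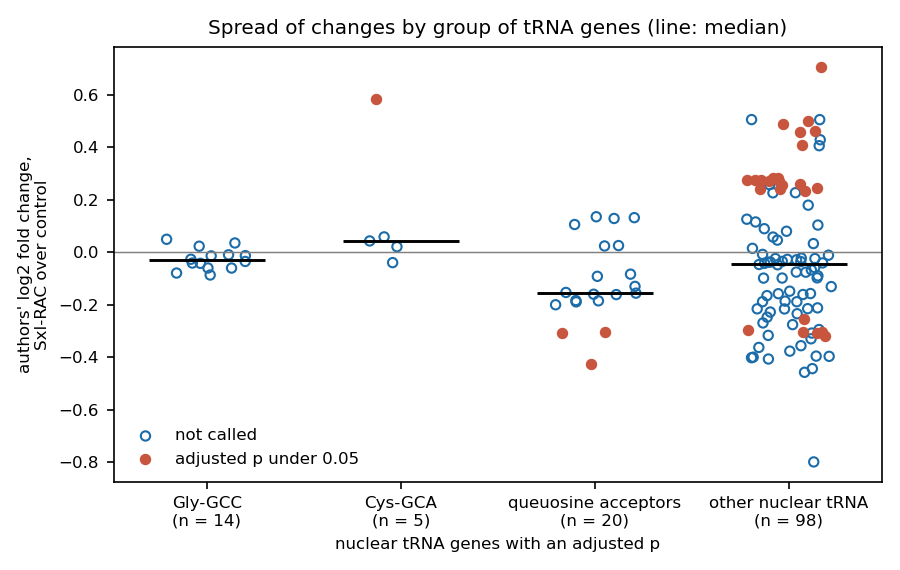
Authors' log2 fold changes of the tested nuclear tRNA genes, by group; filled points have an adjusted p under 0.05 and lines are medians. The 14 Gly-GCC genes lie within -0.09 to 0.05, the 20 queuosine acceptors spread from -0.43 to 0.14, and tRNA:Cys-GCA-3-1 is the filled point among the 5 Cys-GCA genes.

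Mitochondria encode their own tRNAs with 3 of these anticodons, and these genes were adjusted with the nuclear ones. The levels of the compartments differed by anticodon. For Ser-GCT, mt:tRNA:Ser-GCT had a mean normalised count of 2946 against 12 for the 6 nuclear genes together. For Phe-GAA the counts were 20.4 for mt:tRNA:Phe-GAA and 4.02 for the 8 nuclear genes, and for Cys-GCA 11.9 for mt:tRNA:Cys-GCA and 2124 for the 7 nuclear genes. The mitochondrial genes are 62 to 68 bases long, close to the 71 to 82 of the nuclear ones. In the authors' deposited table mt:tRNA:Ser-GCT was called higher at 0.46 (SE 0.11, DESeq2 adjusted p 0.00139), mt:tRNA:Phe-GAA stood at 0.96 (SE 0.44, adjusted p 0.0993) and mt:tRNA:Cys-GCA at 0.01 (SE 0.55). On the microRNA scale the value of mt:tRNA:Ser-GCT was 0.03 and no longer passed.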

How the data were processed

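The authors deposited a table that compares Sxl-RAC with control, with no values per sample. Per the file headers it gives, per gene, a signal (the base mean of normalised counts), a log2 fold change with its SE in log2 units, a Wald score, a p-value and an adjusted p-value. Per the submitters' processing notes, Trim Galore 0.6.7, Bowtie2 2.5.3, featureCounts 2.0.8 and DESeq2 2.11.40.8 were used. Build, strand setting and the handling of reads with several matches are not given in the sources used here, and the direction comes from the file's name. Symbols and coordinates were taken by gene identifier from Ensembl release 115 (BDGP6.54).

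Size factors were recovered with Python 3.11.15 and scipy 1.17.1 by writing mean counts under 0.95 as sums of whole reads (tolerance 1.2e-08). With 6 libraries 33 of 33 tRNA values and 35 of 35 microRNA values could be written, with 5 libraries 25 and 28. Arms were assigned by the deposited fold changes of genes other than the 35 (correlation across genes 0.986 and 0.985, next division 0.841 and 0.765). Reads of genes up to a mean of 6.44 had a single solution within 2e-09. On simulated counts for 299 tRNA genes, the reads of 126 of 126 such low genes were recovered. Total counts per library were not analysed here. Clopper-Pearson intervals and floors cover counting error only, whereas intervals from the authors' SE include the spread between libraries.

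Genes were named if called, if highest in count or highest or lowest in log2 fold change in their family, if the only copy of a sequence, or if mitochondrial with the same anticodon; other genes named were chosen after their values were seen. Copies of a sequence were judged by the gene symbols. Members, lists and the microRNA scale were chosen with earlier results of these data known. Arms of low genes were compared by exact permutation tests over recovered libraries.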

Additional observations from a re-analysis of the deposited data

How the results depend on the processing

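The number of genes called was 1 (1 higher, 0 lower) with a threshold of 0.1, with the p-values adjusted over all genes at once, over genes from a mean count of 10 up, and with values re-centred on the nuclear tRNA median. On the microRNA scale 18 were called, 0 higher and 18 lower; the medians there were -0.44 for the 19 genes, -0.46 for Gly-GCC and -0.39 for Cys-GCA, and tRNA:Gly-GCC-1-6 was at -0.38. The move is a constant added to every tRNA gene, so differences between tRNA genes keep their size. With 1 value for each mature sequence in place of each copy, a choice added after seeing the data, the Cys-GCA median was 0.31, because tRNA:Cys-GCA-3-1 then weighs as much as the 4 copies of Cys-GCA-1; the Gly-GCC median became -0.04. Medians over genes from that count up could not be given for Phe-GAA and Ser-GCT, which have no such gene.

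The log2 ratio of the summed normalised reads was 0.32 for Phe-GAA and 0.10 for Ser-GCT. Leaving out each recovered library in turn gave -0.038 to 0.66 and -0.036 to 0.24, and on the microRNA scale the ratios were -0.11 and -0.33. The sign for Phe-GAA turned without Sxl-RAC library 3 and that for Ser-GCT without Sxl-RAC library 1. No paired analysis was possible because the deposited table has no values per sample and recovered libraries carry no replicate number. For the same reason replicates could not be left out for the genes above that count.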

Other observations

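Values of the Gly-GCC copies by chromosome arm, looked at after the data were seen, were as follows. All 6 copies on 2R had a deposited log2 fold change below 0, from -0.09 to -0.01, with mean normalised counts of 1548 to 1573. Of the 8 copies on 2L, 3 were above 0, and the values ran from -0.06 to 0.05 with mean counts of 1551 to 1586. The medians of the arms were -0.04 and -0.01, both smaller than the SE of a single gene.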
